A study of Mus musculus with 9 samples.

Results

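The 6 glioma lines of the series fall on either side of a log2 level of 9 for Erbb3, a receptor of the ErbB family, and the sides run across the oncogenes that made the lines. The Erbb3-high side holds 3 lines, Erbb2 1, Hras 1 and Erbb2 2, and the Erbb3-low side holds 3, Hras 2, Erbb2 3 and Hras 3. The other 3 of the 9 arrays are neural stem and progenitor cells (NSC). The Erbb2 lines were electroporated in the brain of CD1 mice with EGFP-P2A-Erbb2 V664E, an activated receptor tyrosine kinase, and the Hras lines with EGFP-Hras G12V, an activated form of the GTPase. All 6 tumour lines and the NSC also received TagBFPnls-V5, a blue fluorescent reporter, and the plasmid pBase. NSC 1 carried a membrane EGFP, NSC 2 an EGFP-tagged histone 3.3 and NSC 3 no EGFP, and NSC 3 came from C57/Bl6 mice with a floxed Dnm2 gene. Cells of the subventricular zone were cultured with the growth factors EGF and FGF. The shared protocol gives a sort for high GFP, while the description of NSC 3, which had no EGFP, names a BFP sort. RNA was hybridised to Affymetrix Mouse Gene 1.0 ST arrays. Whether each line came from its own animal is not stated in the labels, nor is the promoter behind each transgene.

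Erbb3 is a receptor with little kinase activity of its own, which signals as the partner of Erbb2 and other ErbB receptors when it binds neuregulins. In the nervous system it is known from Schwann cells and their neural crest precursors and from oligodendrocyte precursors, and Sox10 is a transcription factor of those same lineages. Type I interferons act through a receptor that activates a complex of transcription factors, which binds a response element in the promoters of antiviral genes. Usp18, an isopeptidase that removes Isg15 from proteins and restrains the interferon receptor, is among the genes that this complex induces.

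The values that chose the sides were those of Erbb3 alone. In the order used for all genes below, Erbb3 read 11.36, 11.03 and 9.94 in the Erbb3-high lines Erbb2 1, Hras 1 and Erbb2 2, and 8.49, 4.96 and 5.99 in the Erbb3-low lines Hras 2, Erbb2 3 and Hras 3 (log2). The 3 NSC arrays read 6.06, 5.1 and 5.0. Erbb2 2 lay just inside the limit and Hras 2 just outside it, 1.45 apart, and Hras 2 stood above the other members of its side and above NSC. The difference of the side means, 4.29, is a description of the rule and was not tested. The same 6 lines fell on the same sides after each array was centred on its median and after quantile normalization. Since the sides were selected on a gene of these same arrays, every p-value below is optimistic. It is given only to set the size of a difference against the spread between arrays within the 2 sides and NSC. The NSC arrays, which differ in strain and construct, thus enter that spread, and it is not the spread between glioma lines alone.

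**Figure D1:**
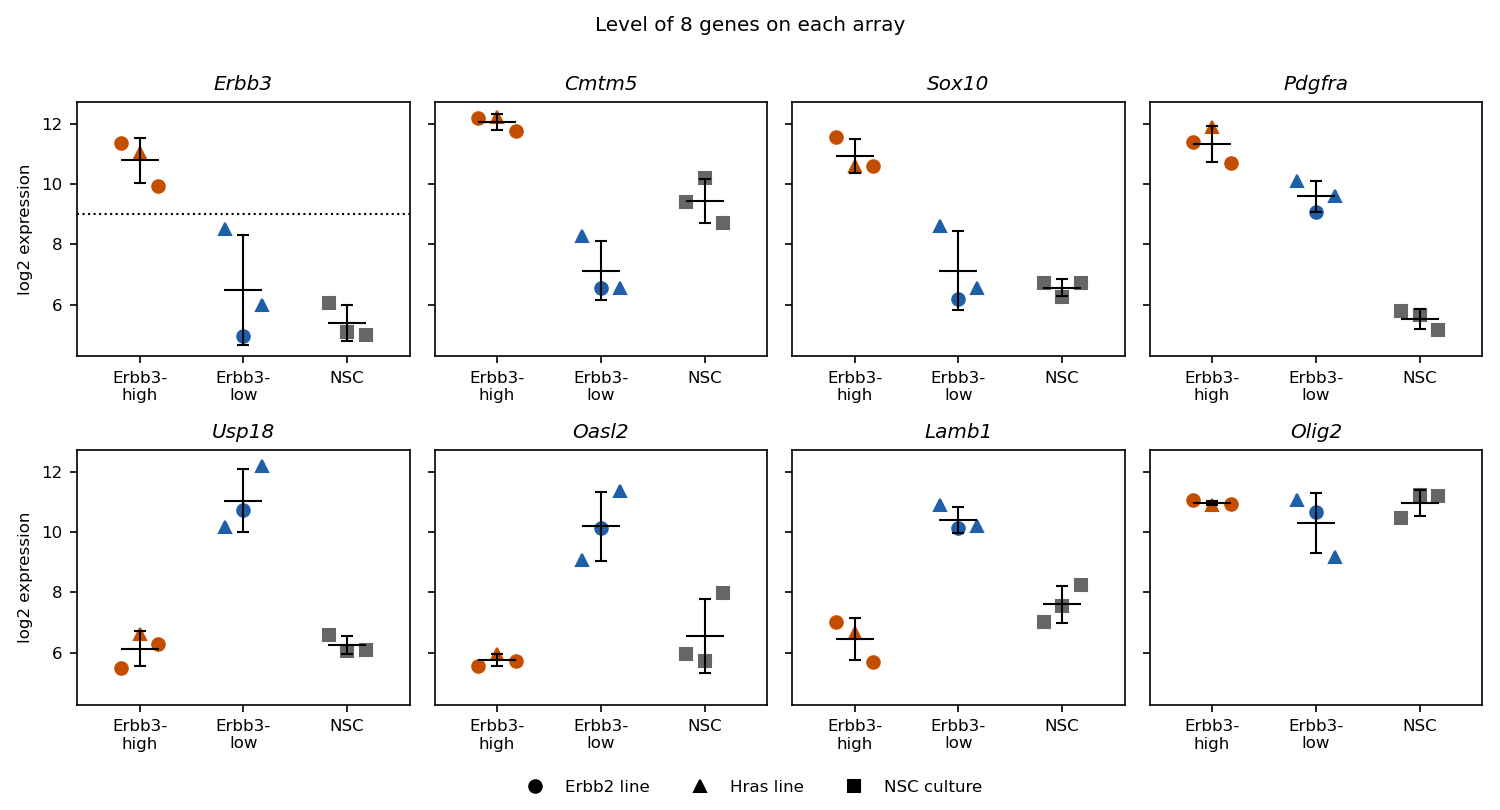
Log2 level of 8 genes (y axis) in Erbb3-high lines, Erbb3-low lines and NSC (x axis). Points are arrays, with circles for Erbb2 lines, triangles for Hras lines and squares for NSC; bars give the mean and SD of 3 arrays, and the dotted line is the Erbb3 limit of 9. The sides do not overlap for Cmtm5, Sox10, Pdgfra, Usp18, Oasl2 and Lamb1, and they overlap for Olig2.

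Over all 20689 genes other than Erbb3, limma called 345 between the sides at an adjusted p under 0.05, or 1.67%. Of these, 138 (0.667%) lay higher in the Erbb3-high lines and 207 (1%) higher in the Erbb3-low lines. This split depended on the scale of the arrays: with arrays centred it was 213 and 116, and after quantile normalization 176 and 114. The median difference over all genes was -0.18 as deposited, 0.03 with arrays centred and 0.01 after quantile normalization, so small differences are read against it. With the 6 tumour arrays alone, limma called 375 genes, and 288 of the 345 were among them. The count of 345 fell to 46 without Erbb2 1, 126 without Erbb2 3, 150 without Hras 3, 156 without Hras 1 and 192 without Erbb2 2. Of the genes named below, 55 calls were lost without Erbb2 1, 43 without Erbb2 3, 39 without Hras 3, 37 without Hras 1, 35 without Erbb2 2 and 10 without Hras 2, and none of these differences turned its direction.

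A second count used no test. It took genes for which each line of a side lay above each line of the other and whose side means were 1 log2 unit or more apart, called genes that lay apart. There were 1276 such genes (6.17%), 439 (2.12%) higher in the Erbb3-high lines and 837 (4.05%) higher in the Erbb3-low lines. With arrays centred the numbers were 698 and 545, and after quantile normalization 608 and 600. For scale, 553 genes (2.67%) separated the 3 Erbb2 lines from the 3 Hras lines by the same measure. The oncogene groups come from the labels and the sides from Erbb3 on these same arrays, so the counts are not a like comparison. The correlation of arrays across genes was 0.963 to 0.971 among the Erbb3-high lines, 0.939 to 0.955 among the Erbb3-low lines and 0.897 to 0.955 between the sides, as a description over genes that are not independent. Hras 2 stood about as close to both sides. Its correlation was 0.951, 0.955 and 0.945 with Erbb2 1, Hras 1 and Erbb2 2, and 0.955 and 0.947 with Erbb2 3 and Hras 3.

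**Figure D2:**
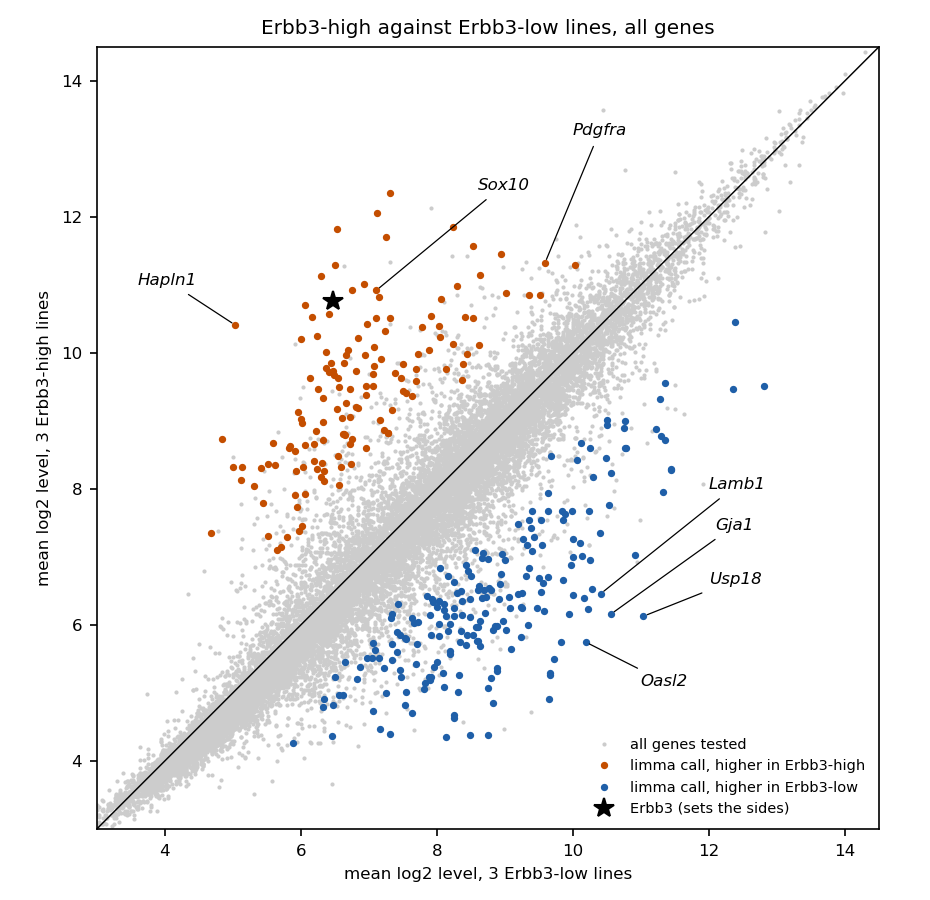
Mean log2 level of each gene in the 3 Erbb3-low lines (x axis) and the 3 Erbb3-high lines (y axis). Grey points are all genes tested, coloured points the 138 genes called higher in Erbb3-high and the 207 called higher in Erbb3-low lines, and the star is Erbb3, which sets the sides.

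In 3 lists of oligodendrocyte genes, of lineage transcription factors, precursor genes and myelin genes, each called gene was higher in the Erbb3-high lines. Over all genes, the largest differences in this direction included Hapln1, a link protein of the hyaluronan matrix that stands in the astrocyte list, Gjc3, a connexin of myelinating glia, Cmtm5, Gng3, a G protein subunit, and Enpp2, which makes lysophosphatidic acid and stands in the myelin list. These differences ran from 4.64 to 5.37 on the log2 scale. All 5 passed the test, with limma adjusted p from 0.00493 to 0.0276.

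Cmtm5 read 12.2, 12.23 and 11.76 in the Erbb3-high lines, 8.26, 6.56 and 6.55 in the Erbb3-low lines and 9.4, 10.18 and 8.71 in NSC. The Erbb3-high lines were close to each other and above all other arrays, and the Erbb3-low lines lay below every NSC array. The side means differed 30.7-fold (4.94 ± 0.5 SE, limma adjusted p = 0.00493). Hapln1 read 10.42, 12.21 and 8.6 in the Erbb3-high lines against 5.14, 5.33 and 4.65 in the Erbb3-low lines and 5.37, 4.92 and 4.33 in NSC. Hras 2 lay with the other Erbb3-low lines and with NSC, all below 5.71, a level that 95% of the values of 1356 olfactory, vomeronasal and taste receptor genes did not exceed, so that the difference gives no exact ratio.

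Of 13 transcription factors of the oligodendrocyte lineage, 4 were called higher in the Erbb3-high lines and none lower, 6 lay apart in that direction, and the median difference was 0.67, against -0.18 over all genes. That median was 0.11 without Hras 3 and 1.06 without Hras 2. Sox10 read 11.56, 10.59 and 10.6 in the Erbb3-high lines, 8.61, 6.17 and 6.56 in the Erbb3-low lines and 6.71, 6.25 and 6.73 in NSC. The Erbb3-high lines lay above all other arrays, Hras 2 lay between, and the rest of the Erbb3-low lines overlapped NSC (difference 3.8 ± 0.56 SE, limma adjusted p = 0.0132). The other called factors were Myt1 (3.17), the oligodendrocyte regulator Zfp488 (2.64) and Myrf (1.94), which drives myelin genes. Olig1 differed by 1.1 and did not pass the test (limma adjusted p = 0.355).

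Olig2, which specifies the lineage, gave overlapping sides, at 11.05, 10.9 and 10.94 in the Erbb3-high and 11.06, 10.65 and 9.17 in the Erbb3-low lines, with NSC at 10.45, 11.22 and 11.2. Its difference was 0.67 (limma adjusted p = 0.688). Nkx2-2 also overlapped, at 9.04, 8.78 and 9.26 against 9.21, 9.28 and 7.21 (difference 0.46, limma adjusted p = 0.831). In both, only Hras 3 lay below the other tumour lines.

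Among 23 surface and secreted genes of oligodendrocyte precursors, 4 were called higher in the Erbb3-high lines, 13 lay apart in that direction and none in the other, with a median of 1.72, or 1.03 without Hras 3. The called genes were Pdgfra, the PDGF receptor of these precursors, C1ql1 (3.19), the cadherin Pcdh15 (2.76) and Lims2 (1.72), which lies outside the rule for named genes and was chosen after its values were seen. Pdgfra read 11.4, 11.89 and 10.68 in the Erbb3-high lines, 10.1, 9.06 and 9.6 in the Erbb3-low lines and 5.79, 5.64 and 5.16 in NSC. Both sides lay far above NSC, and the gap between Erbb2 2 and Hras 2 was 0.59 (difference of side means 1.74 ± 0.37 SE, limma adjusted p = 0.0493). Cspg4, the NG2 proteoglycan, read 11.13, 10.04 and 9.6 against 8.93, 7.78 and 8.24, a difference of 1.94 that missed the threshold (limma adjusted p = 0.0875). Rlbp1 (3.18), Lhfpl3 (2.98) and the receptor Gpr17 (2.52) lay apart without passing the test.

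Of 23 myelin and mature oligodendrocyte genes, 7 were called higher in the Erbb3-high lines and none lower; 8 lay apart in that direction and 1 in the other, with a median of 0.6, or 0.24 without Hras 1. Besides Enpp2 they include the enzymes of myelin galactolipids Ugt8a (3.4) and Gal3st1 (1.99) and the connexin Gjb1 (1.79). Another 3 myelin genes, chosen after their values were seen, did not pass the test. Mbp read 6.91, 7.22 and 7.08 against 6.67, 5.81 and 6.25, Mog 5.59, 5.59 and 5.51 against 6.12, 5.4 and 5.74, and Mag 5.55, 5.43 and 5.33 against 5.72, 5.12 and 5.42. Their differences were 0.83, -0.19 and 0.02 (limma adjusted p from 0.242 to 0.984). For Mog and Mag all 3 Erbb3-high lines and some Erbb3-low lines read below the level of 5.71, so their differences say little.

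Several genes of this pattern are shared with Schwann cells and the neural crest, where Erbb3 is also active. Of 19 markers of those cells, 3 were called, among them Sox10 and the cadherin Cdh19 (3.08), 6 lay apart, all higher in the Erbb3-high lines, and the median was 0.51. Without Erbb2 1 it was -0.1, without Erbb2 3 0.26 and without Erbb2 2 0.95. The astrocyte list gave 2 calls higher and 1 lower among 20 genes, with a median of -0.28, or -0.15 without Erbb2 1, -0.12 without Hras 1 and -0.07 without Hras 2. S100b, a calcium-binding protein of astrocytes and oligodendrocyte precursors, read 9.96, 10.92 and 10.31 against 7.93, 8.91 and 7.29 (difference 2.35, limma adjusted p = 0.0309). Gja1, the connexin of astrocytes and radial glia, went the other way, at 5.14, 5.04 and 8.32 in the Erbb3-high lines, 10.18, 10.4 and 11.12 in the Erbb3-low lines and 10.17, 10.86 and 9.48 in NSC. The Erbb3-low lines overlapped NSC, and the Erbb3-high lines lay below both (difference -4.4 ± 0.77 SE, limma adjusted p = 0.0229).

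Among the ErbB receptors other than Erbb3, none was called. Egfr read 5.29, 5.59 and 6.33 in the Erbb3-high lines, 8.14, 7.16 and 7.53 in the Erbb3-low lines and 9.6, 10.71 and 11 in NSC, so that the sides lay apart in the direction opposite to Erbb3, both below NSC (difference -1.87, limma adjusted p = 0.064). Erbb4 read 8.46, 7.37 and 7.31 against 7.08, 5.45 and 5.75, with NSC at 6.31, 9.48 and 9.3 (difference 1.62, limma adjusted p = 0.506). Erbb2 read 8.24, 7.23 and 7.0 against 8.37, 9.18 and 8.19, and its sides overlapped through Erbb2 1 and Hras 3 (difference -1.08, limma adjusted p = 0.259). The probe set of Hras, listed as Hras1, read 8.82 to 9.52 in the Erbb3-high and 8.93 to 9.53 in the Erbb3-low lines. Whether the Erbb2 and Hras1 probe sets also read the transgenes was not tested, so these values may not be those of the endogenous genes alone.

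Of 11 ErbB ligands, 1 was called. Tgfa, a ligand of Egfr, read 9.66, 9.39 and 9.19 in the Erbb3-high lines, 8.08, 7.37 and 7.21 in the Erbb3-low lines and 7.35, 7.39 and 7.69 in NSC. Its Erbb3-high lines lay above all other arrays, a 3.63-fold difference of the side means (1.86 ± 0.28 SE, limma adjusted p = 0.0132). Nrg1, a neuregulin that binds Erbb3, read 5.96, 6.22 and 6.18 against 7.56, 6.85 and 7.89, a difference of -1.31 that missed the threshold (limma adjusted p = 0.105). Ereg was at 8.21 in Hras 2 and 10.43 in Hras 3 and between 4.86 and 5.43 in the other tumour lines, and Hbegf at 10.96 and 11.37 in those Hras lines and 8.15 to 8.8 in the others. Both ligands were high in the Hras lines of the Erbb3-low side and not in Erbb2 3.

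The Erbb3-low lines carried high levels of interferon-induced genes. Of the 12 genes with the largest difference in this direction, Usp18, Ifi204, Trim30a, Oasl2, Ifi202b, Ifi44, Samd9l and Rtp4 are known as interferon-induced. Usp18 had the largest difference of them. It read 5.48, 6.62 and 6.3 in the Erbb3-high lines, 10.18, 10.73 and 12.2 in the Erbb3-low lines and 6.59, 6.05 and 6.09 in NSC. The Erbb3-high lines overlapped NSC, and the lowest Erbb3-low line, Hras 2, lay 3.57 above the highest Erbb3-high line. The side means differed 30.0-fold (-4.9 ± 0.49 SE, limma adjusted p = 0.00493), with -4.84 within the Erbb2 lines and -4.57 within the Hras lines.

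Of 44 interferon-induced effectors, 16 were called higher in the Erbb3-low lines and none lower, 33 (75%) lay apart in that direction, and the median was -2.26. All 44 differences were negative. For 36 of the 44, each Erbb3-low line lay above each NSC array, while the Erbb3-high lines lay above NSC for 5 and below it for 7. By the same count the Erbb3-low lines lay above NSC for 18 of 30 genes of the unfolded protein response and for 3 of 25 collagens. The share over all genes was not computed. Within the Erbb3-low side the level was not even: Hras 3 was the highest of the 3 lines for 39 genes and Hras 2 the lowest for 31. Hras 3 was also the highest for 22 of 28 mitosis genes, but for 8 of 25 collagens. The mean of the interferon effector list was 5.72, 6.25 and 5.83 in the Erbb3-high lines, 7.43, 8.1 and 9.34 in the Erbb3-low lines and 6.19, 5.84 and 6.17 in NSC.

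Oasl2, of the oligoadenylate synthetase family, read 5.57, 5.95 and 5.74 against 9.07, 10.15 and 11.35, with NSC at 5.97, 5.74 and 7.98. Ifit1, which binds viral RNA, read 4.43, 5.23 and 4.9 against 7.85, 8.93 and 9.7, with NSC at 5.29, 4.76 and 7.88. In both, NSC 3 lay well above the other NSC arrays, and for Ifit1 it overlapped the Erbb3-low lines. The differences were -4.43 ± 0.65 (SE, limma adjusted p = 0.0132) and -3.98 ± 0.74 (SE, limma adjusted p = 0.029). For Ifit1, Ifi204, Ifi202b, Samd9l and Trim30a all 3 Erbb3-high lines read below the level of 5.71 described above, and their differences give no exact ratio. Trim30a did not pass the test (difference -4.66, limma adjusted p = 0.0866), with Hras 2 at 5.85 and Erbb2 3 and Hras 3 at 10.71 and 11.56.

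The promoters of 3 called effectors are shown for the interferon-stimulated response element, spelled GAAANNGAAA and searched on both strands, from 250 bases before to 50 after the start of the RefSeq gene (build GRCm38.p6). The 3 were picked by hand, Rsad2 and Bst2 from outside the rule for named genes. Each holds the motif, which 15 of the 35 effectors with a promoter do, so they are examples only. They are Ifit1 (chr19:34640639-34640938, plus strand, 2 matches), Rsad2, the antiviral enzyme viperin (chr12:26456403-26456702, minus strand, 1 match), and Bst2, tetherin (chr8:71537423-71537722, minus strand, 2 matches that overlap). Each is printed 5′ to 3′ along its gene, with the matches in capitals; a match on the opposite strand appears as its reverse complement.
Ifit1: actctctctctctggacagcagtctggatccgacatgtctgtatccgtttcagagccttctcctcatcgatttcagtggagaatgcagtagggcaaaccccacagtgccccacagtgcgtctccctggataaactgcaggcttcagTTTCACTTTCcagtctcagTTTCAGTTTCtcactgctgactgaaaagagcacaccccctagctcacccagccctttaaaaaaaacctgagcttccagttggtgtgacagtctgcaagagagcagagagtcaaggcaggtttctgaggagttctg
Rsad2: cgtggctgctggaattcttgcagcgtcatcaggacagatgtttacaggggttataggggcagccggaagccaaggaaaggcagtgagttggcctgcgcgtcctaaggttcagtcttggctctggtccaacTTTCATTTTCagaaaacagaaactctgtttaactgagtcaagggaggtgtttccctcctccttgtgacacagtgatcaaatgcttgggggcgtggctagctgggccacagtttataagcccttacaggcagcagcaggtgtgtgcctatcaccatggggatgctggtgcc
Bst2: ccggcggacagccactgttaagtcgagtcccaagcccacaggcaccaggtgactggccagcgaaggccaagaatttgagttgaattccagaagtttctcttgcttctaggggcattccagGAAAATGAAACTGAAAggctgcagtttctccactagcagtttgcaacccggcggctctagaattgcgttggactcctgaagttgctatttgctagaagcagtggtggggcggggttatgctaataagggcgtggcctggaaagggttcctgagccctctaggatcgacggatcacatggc

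Rsad2 read 5.94, 6.39 and 5.69 in the Erbb3-high lines and 8.27, 7.94 and 8.38 in the Erbb3-low lines, and Bst2 6.7, 6.67 and 6.79 against 8.35, 9.11 and 10.51. The motif of these promoters was present in 15 of the 35 interferon effectors that have a promoter in the table (42.9%), against 636 of all 15880 genes (4.01%). Among genes that lay apart it was present in 66 of 626 higher in the Erbb3-low lines (10.5%) and 14 of 329 higher in the Erbb3-high lines (4.26%). Among called genes the counts were 23 of 154 (14.9%) and 8 of 108 (7.41%), and Gjc3, of the opposite direction, is among the latter. The shorter SOX motif AACAAAG was found in 21 of the 329 promoters higher in the Erbb3-high lines (6.38%), 42 of the 626 higher in the Erbb3-low lines (6.71%) and 5.71% of all. Among called genes it was in 6.48% of those higher in the Erbb3-high and 9.74% of those higher in the Erbb3-low lines. The STAT motif TTCNNNGAA was in 65 of the 626 (10.4%), 27 of the 329 (8.21%) and 9.1% of all. A match is a description of the letters and no test was made.

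Of 12 signalling genes and transcription factors of the interferon response, 5 were called higher in the Erbb3-low lines and 7 lay apart (median -1.14). Usp18, Irf7, Irf9 and Socs3 were among those called, while Stat2 differed by -1.63 without a call (limma adjusted p = 0.124). Irf9, a transcription factor of the interferon response, read 6.94, 7.6 and 7.36 against 9.13, 9.45 and 9.72, with NSC at 6.75, 7.19 and 7.28. Irf7, which amplifies the production of interferon, read 5.3, 5.69 and 4.99 against 7.51, 8.34 and 10.82, with all 3 Erbb3-high lines below the level of 5.71. In both the Erbb3-low lines lay above all other arrays, with Hras 3 highest.

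Of 15 nucleic acid sensors and their adaptors, 3 were called higher in the Erbb3-low lines and 6 lay apart in that direction (median -0.64). They were Dhx58 (-3.68) and Ifih1 (-3.07), of the family of RNA sensors, whose Erbb3-high lines all read below 5.71, and the adaptor Myd88 (-1.7). None of 8 interferon ligands and receptors was called or lay apart, and their median of -0.26 was close to that of all genes. Ifnar1, a chain of the type I receptor, read 9.05, 9.55 and 9.03 against 9.67, 9.89 and 9.35. Ifnb1, chosen after its values were seen, read 4.72, 4.88 and 4.64 in the Erbb3-high lines and 5.22, 4.53 and 4.83 in the Erbb3-low lines, all below the level of 5.71.

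Of 22 genes of antigen presentation by MHC class I, 2 were called higher in the Erbb3-low lines, 13 lay apart in that direction and none in the other (median -1.54). H2-Q4, a class I heavy chain, read 5.68, 7.56 and 6.35 against 8.23, 11.19 and 11.44, and the classical chain H2-K1 read 7.29, 8.09 and 7.78 against 9.14, 11.21 and 11.46, with NSC at 9.03, 8.82 and 6.4. Hras 2 lay nearer to the Erbb3-high lines than to Erbb2 3 and Hras 3 in both. H2-Q4 was called (difference -3.76, limma adjusted p = 0.044), while H2-K1, the peptide transporter Tap1 and the proteasome subunit Psmb8 lay apart by -2.88, -2.71 and -3.06 without passing the test (limma adjusted p from 0.0634 to 0.105). The class I genes share sequence, and the probe sets may not tell them apart.

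Of 28 cytokines and chemokines, 7 were called higher in the Erbb3-low lines and 10 lay apart, with none in the other direction (median -0.87). Cxcl10, an interferon-induced chemokine, read 5.65, 5.94 and 5.36 against 9.05, 8.44 and 9.76, with NSC at 5.83, 6.09 and 8.63. Here too NSC 3 lay within the range of the Erbb3-low lines (difference -3.44 ± 0.65 SE, limma adjusted p = 0.0309). Il34 (-2.37) and Csf1 (-2.36), ligands of the Csf1 receptor, and the monocyte chemokines Ccl2 (-2.33) and Ccl7 (-2.74) were also called.

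**Figure D3:**
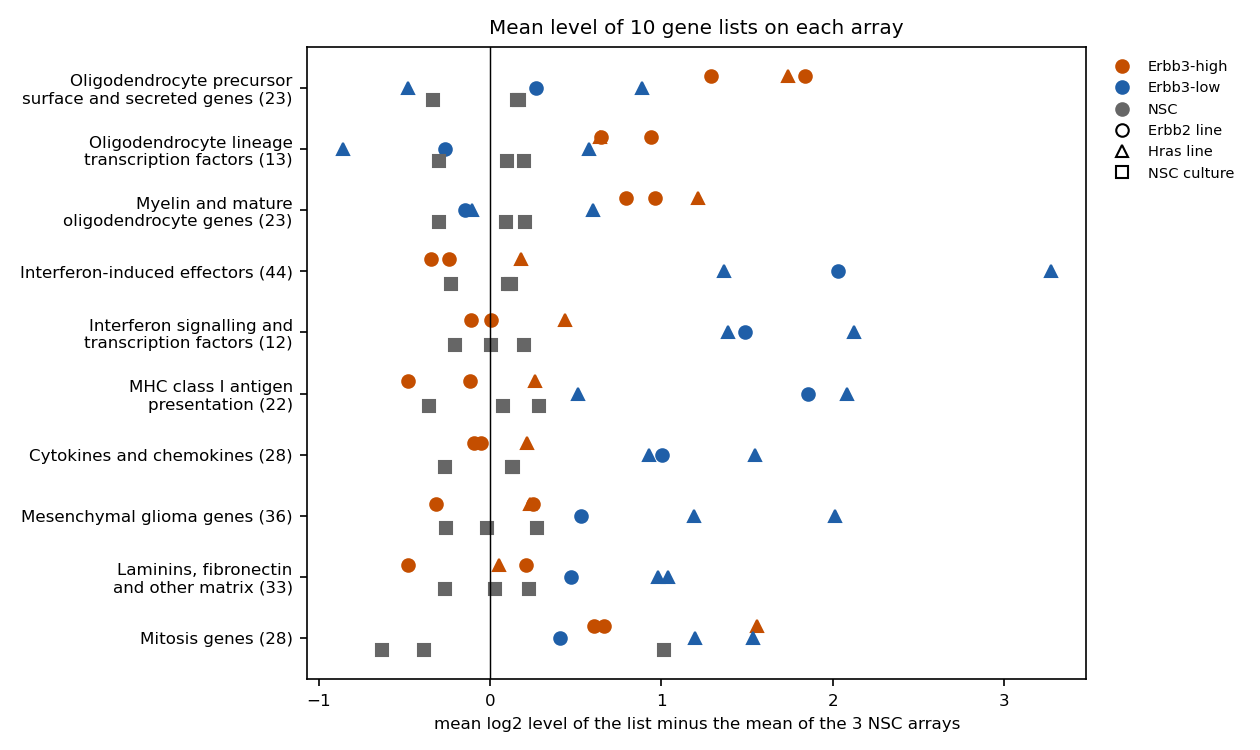
Mean log2 level of 10 gene lists on each array minus the mean of the 3 NSC arrays (x axis), with the number of genes in brackets. Colours give the sides and NSC, and shapes the oncogene. The sides do not overlap in the oligodendrocyte, interferon, MHC class I, cytokine, mesenchymal and laminin lists, and they overlap for mitosis genes.

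The mesenchymal and matrix lists held smaller shares of called genes than the interferon effectors. Of 36 mesenchymal glioma genes, 3 were called higher in the Erbb3-low lines and 1 lower, Chi3l1 (2.38), with 13 and 1 lying apart and a median of -1.21, or -0.7 without Hras 3. Of 17 transcription factors of the mesenchymal transition, 3 were called higher in the Erbb3-low lines and none lower (median -0.96). They were Yap1 (-1.97) and Wwtr1 (-1.65), the coactivators of the Hippo pathway, and Snai1 (-1.66). Tead1, a DNA-binding partner of Yap1, differed by -2.52 without a call (limma adjusted p = 0.075). Its SD was 0.57 in the Erbb3-high lines, 0.2 in the Erbb3-low lines and 1.42 in NSC, which enters the test.

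Of 33 laminins and other matrix genes, 3 were called higher in the Erbb3-low lines and none lower, and 11 lay apart (median -0.69, or -0.37 without Hras 2). Lamb1, a laminin chain, read 7.03, 6.65 and 5.69 in the Erbb3-high lines, 10.91, 10.12 and 10.2 in the Erbb3-low lines and 7.02, 7.54 and 8.25 in NSC. The Erbb3-low lines lay above all other arrays, a 15.5-fold difference of the side means (-3.95 ± 0.42 SE, limma adjusted p = 0.00592). This ratio is not exact either, since Erbb2 2 read just below 5.71. Nid1, which links laminin and collagen, was also called (-3.09), and fibronectin, Fn1, read 7.67, 8.14 and 6.81 against 11.46, 10.28 and 11.23 without a call (difference -3.45, limma adjusted p = 0.0579). The SD of Fn1 was 0.67 in the Erbb3-high lines, 0.63 in the Erbb3-low lines and 1.79 in NSC, which enters the test. Of 20 integrins Itga7, a laminin receptor chain, was called (-3.34). None of 25 collagens was called and 1 lay apart, Col8a1, through Hras 3 at 10.29.

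Of the remaining genes with the largest differences in this direction, Myof, a protein of membrane repair, read 5.43, 5.55 and 4.81 against 9.67, 8.74 and 10.57, with NSC at 5.69, 5.8 and 5.6. The Erbb3-high lines lay below all NSC arrays, and below 5.71, and the Erbb3-low lines lay above all other arrays (difference -4.4 ± 0.41 SE, limma adjusted p = 0.00493). Casp8, the initiator caspase of death receptors, read 4.41, 6.12 and 5.96 against 8.31, 10.02 and 10.84, with NSC at 8.93, 6.29 and 7.94. Lcn2, lipocalin 2, lay apart by a narrow gap, with Erbb2 2 at 9.27 and Hras 2 at 9.54 (difference -4.02, limma adjusted p = 0.0942).

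The oncogenes were set against each other in the difference between the sides. No gene was called for a side difference that itself differed between the Erbb2 and the Hras lines (limma, lowest adjusted p = 0.517), and 376 of 20689 had an unadjusted p under 0.05. Within the Erbb2 lines the medians of the oligodendrocyte precursor, interferon effector and laminin lists were 1.19, -2.41 and -0.32, and within the Hras lines 1.49, -2.01 and -0.83, against 0 and -0.16 over all genes. Other lists were less alike: the median was -2.26 and -0.91 for MHC class I genes and -0.54 and -1.29 for mesenchymal glioma genes, in the same order. These differences rest on 1 array in 1 side of each oncogene.

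**Figure D4:**
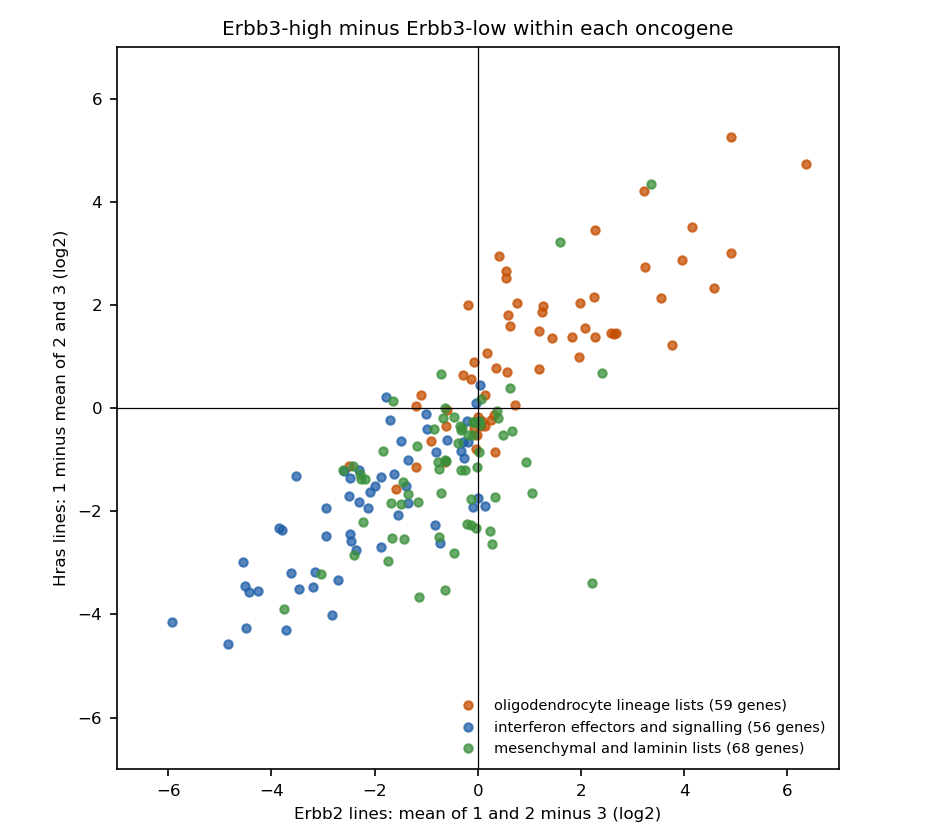
Erbb3-high minus Erbb3-low difference within the Erbb2 lines (x axis, log2) and within the Hras lines (y axis, log2), each point a gene of the lists named in the key. Most interferon genes lie in the lower left and most oligodendrocyte genes with a large difference in the upper right; the direction of a gene that lay apart is fixed by that rule.

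The sides also coincide in part with the number of the line. Both lines numbered 1 are Erbb3-high and both numbered 3 are Erbb3-low, in the titles and in the leading number of the descriptions, whose meaning is not stated, so that for these lines a shared step of handling and the side cannot be told apart. The line titled Hras 3 bears a 4 at the end of its description, and the title's number is used here. The number 2 holds both sides, with Erbb2 2 against Hras 2, and there the oncogene and the side cannot be told apart. Erbb2 2 minus Hras 2 was -0.5 in the median over all genes. It was 0.59 for the oligodendrocyte precursor list, 0.05 for the lineage transcription factors and -0.06 for the myelin list. For the interferon effectors it was -1.47, with 1 of 44 above the median of all genes, for the interferon signalling list -1.38 and for the laminin list -1.02. For the MHC class I list it was -0.58, close to that of all genes.

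Hras 2 was the Erbb3-low line nearest to the other side. On a scale on which 0 is the mean of Erbb2 3 and Hras 3 and 100 the mean of the Erbb3-high lines, Hras 2 lay at 56.8% for Erbb3. Its median position was 41.7% (quartiles 23.5 and 56.3) over the 439 genes that lay apart and higher in the Erbb3-high lines. It was 21.5% (quartiles -7.72 and 46.6) over the 837 genes of the other direction. By the rule these genes cannot reach the Erbb3-high lines, so the positions are bounded from above.

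**Figure D5:**
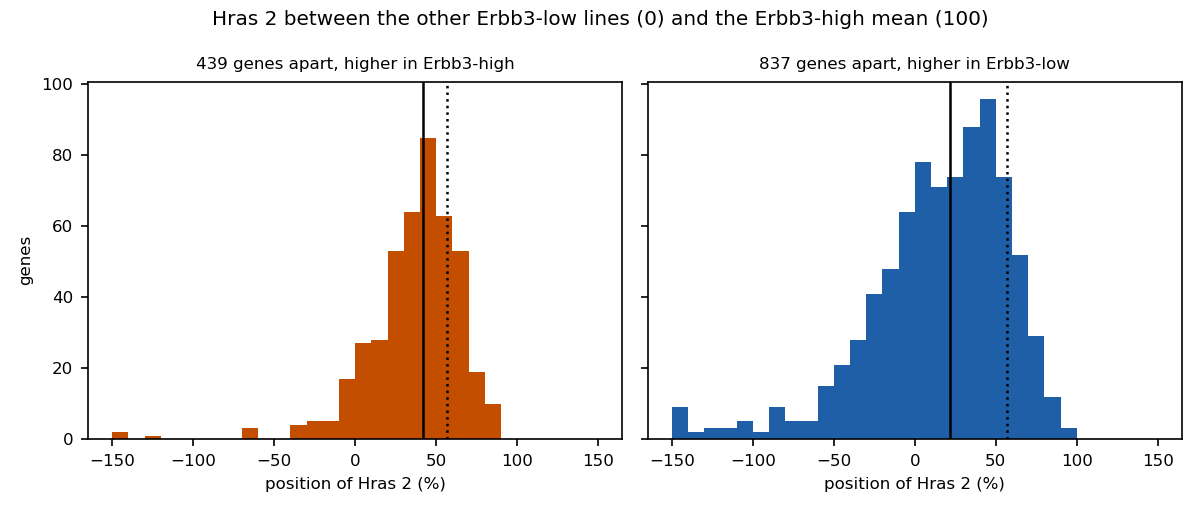
Number of genes (y axis) by the position of Hras 2 between the mean of the other Erbb3-low lines (0) and the Erbb3-high mean (100) on the x axis, for the 439 and 837 genes that lay apart in each direction; values beyond the axis are drawn in the outermost bars. The solid line is the median, 41.7% and 21.5%, and the dotted line is Erbb3 at 56.8%.

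The genes that lay apart were also set against NSC. Of the 439 genes higher in the Erbb3-high lines, 327 (74.5%) had all 3 Erbb3-high lines above all NSC arrays, and 51 (11.6%) had all 3 Erbb3-low lines below NSC. Of the 837 genes higher in the Erbb3-low lines, 416 (49.7%) had all 3 Erbb3-low lines above NSC, and 243 (29%) had all 3 Erbb3-high lines below NSC. Lamb1 and Usp18 are of the former kind and Gja1 of the latter. The rule that chose these genes itself raises such shares. The shares over all genes were not computed, so the percentages have no background here.

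Markers of other cells that a culture could hold were read on the same arrays. Of 18 microglia and macrophage markers none was called and 2 lay apart, Cd68 (6.77, 7.3 and 6.9 against 8.32, 8.44 and 8.24) and Cd14. The defining markers Ptprc, Aif1 and Csf1r read 4.46 to 6.03 on the 6 tumour arrays, against the level of 5.71. The summed level of the list was 9.73, 9.92 and 9.72 in the Erbb3-high and 10.43, 10.21 and 10.47 in the Erbb3-low lines (log2 of summed linear levels). None of 15 lymphocyte, 15 endothelial and 14 ependymal markers was called. Of 20 pericyte and fibroblast markers 1 was called, Pdgfra, which oligodendrocyte precursors share. The part of such cells in the differences between the sides was not tested, and in these bulk cultures fewer cells of a type and less RNA per cell cannot be told apart.

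The Y-linked genes Ddx3y, Eif2s3y, Kdm5d and Uty read 6.59 to 8.45 in Erbb2 1 and Erbb2 3 and 3.72 to 5.33 in the other 4 tumour lines, and Xist read 3.97 in the former and 8.83 to 10.23 in the latter. Each side thus held 1 line with Y-linked expression and 2 lines with Xist. None of the 5 genes was called between the sides. Of 28 mitosis genes none was called or lay apart. Of 34 genes of DNA replication and the G1/S step none was called, 1 lay apart and higher in the Erbb3-high lines and 2 in the Erbb3-low lines. The 3 Ets factors of the PEA3 family, which act downstream of Ras signalling, gave differences of -0.32 (Etv1), 0.56 (Etv4) and -0.34 (Etv5), with limma adjusted p from 0.687 to 0.844 and overlapping sides.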

How the data were processed

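RNA of 6 glioma lines and 3 NSC cultures was measured on 9 arrays. The authors deposited a table of log2 values per gene, used here as it stands, and a table of probe-set intensity values, whose log2 served as an alternative. The normalization behind them is not given in the sources used here. The number of arrays limits the precision.

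The sides were set by Erbb3 at a log2 level of 9. The members, gene lists and tests were chosen with earlier results of these data known. limma 3.58.1 (R 4.3.3) was fitted over 9 arrays in 3 groups (Erbb3-high, Erbb3-low, NSC), with Benjamini-Hochberg adjustment over 20689 genes at 0.05; differences are Erbb3-high minus Erbb3-low on the log2 scale. The labels name no separate animals, so p-values measure the spread between these samples. Erbb3 was not tested, and 25 rows with a number in place of a symbol were left out. Named genes were the 12 largest differences in each direction, leading members of 44 lists (921 of 925 symbols matched) and chosen ErbB, lineage, interferon and sex-linked genes. Alternatives changed the arrays, covariates, scaling, filter, test, weights and value table. The fit was tested on simulated data. A few genes that the rule names are not reported here. Promoters came from RefSeq (GRCm38.p6).

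The lines of a number were not treated as pairs in the main fit. The correlation of deviations between them was 0.339, -0.344 and 0.441, which does not decide that choice. Since numbers 1 and 3 hold 1 side each and number 2 both, these signs follow the sides too, and whether the numbers mark a shared batch cannot be told apart from the sides.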

Additional observations from a re-analysis of the deposited data

How the results depend on the processing

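The count of 345 called genes ran from 46 to 463 when each array was left out in turn, and it was 1887 with array weights. With the line number as a replicate block, limma called 0 genes, and 2107 had an unadjusted p under 0.05. In that fit the side rests on Erbb2 2 against Hras 2, since the other numbers hold 1 side each, and 63 of the genes named no longer passed the test. Whether the numbers mark a shared batch cannot be told apart from the sides. All of the 345 genes that an alternative tested kept their direction in it. The 1276 genes that lay apart became 3468 with no minimum difference and 421 with at least 2 log2 units, and 1390 to 1688 with an array left out. Over the alternatives the list medians ran over -2.97 to -1.47 for interferon effectors, 0.59 to 1.96 for oligodendrocyte precursor genes, 0.05 to 1.42 for the lineage transcription factors, -0.06 to 0.8 for myelin genes and -1.95 to -0.58 for MHC class I genes. Of 44 lists, 35 had a median that moved by over 1.5 times or changed sign without 1 array, 6 of them with a median of 0.5 or more in size, for which the values stand in the report. Of the named genes, 16 no longer passed with arrays centred, 22 after quantile normalization and 28 with the oncogene as a term.

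The genes that changed sign had not passed the test in the first place, and the cause was not tested. With the oncogene as a term the differences were 0.1 (Hras1), 0 (Ifnb1) and 0.99 (Xist). With the replicate block the differences were -0.08 (Etv4), -0.39 (Mag) and -0.12 (Olig2). With arrays centred the differences were 0.15 (Hras1), 0.09 (Ifnb1) and 0.01 (Mog). After quantile normalization the differences were 0.02 (Aif1), 0.04 (Csf1r), 0.01 (Hras1), 0.14 (Ifnb1), 0.08 (Mog) and 0.04 (Ptprc). With array weights the differences were 0.99 (Ddx3y), 0.97 (Eif2s3y), 0.14 (Etv1), 0.26 (Etv5), 0.32 (Kdm5d) and 0.77 (Uty). With an array left out the differences ran over -0.4 to 0.02 (Csf1r), -1.33 to 1.02 (Ddx3y), -1.36 to 1.18 (Eif2s3y), -0.22 to 0.13 (Hras1), -0.28 to 0.07 (Ifnb1), -1.38 to 0.34 (Kdm5d), -0.13 to 0.17 (Mag), -0.22 to 0.82 (Nkx2-2), -1.32 to 0.94 (Uty) and -2.29 to 1.55 (Xist).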

Other observations

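Of all genes tested, 1.67% were called. Of 20 Notch genes 1 was called, Hey2, a target of Notch and Bmp signalling, at 8.3, 8.48 and 8.2 in the Erbb3-high lines, 5.72, 4.65 and 5.02 in the Erbb3-low lines and 5.48, 6.36 and 4.92 in NSC. The Erbb3-high lines lay above all other arrays (difference 3.2 ± 0.39 SE, limma adjusted p = 0.00742). Of the Notch genes without a call, Hey1 (2.19) lay apart in the same direction. The receptors Notch2 (-1.76) and Notch1 (-1.36) lay apart in the other. In the list of 35 TGF-beta and BMP genes the ligand Bmp7 was called higher in the Erbb3-high lines, at 11.96, 11.88 and 11.72 against 10.15, 7.01 and 7.56, and the coreceptor Tgfbr3 higher in the Erbb3-low lines, at 7.23, 7.81 and 7.62 against 5.82, 6.11 and 5.46. Of 38 Wnt genes 2 were called in each direction: the secreted inhibitor Frzb (3.08) and the receptor Fzd9 (2.18) higher in the Erbb3-high lines, and the receptors Fzd1 (-1.97) and Fzd7 (-1.62) higher in the Erbb3-low lines. Fzd7 lies outside the rule for named genes and was chosen after its values were seen.

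Among 27 hypoxia and glycolysis genes Adm, adrenomedullin, was called (difference -3.19), with the Erbb3-low lines at 9.28, 9.89 and 10.36, the Erbb3-high lines at 6.48, 7.29 and 6.21 and NSC at 10.56, 8.83 and 10.34. Among 30 p53 targets and CDK inhibitors the death receptor Tnfrsf10b was called (-2.83), and among 35 matrix proteases and inhibitors Mmp17 (1.64) and Loxl1 (-1.53) were called. Emx2, a forebrain factor, was the called gene of both the 27 forebrain and the 26 neural stem cell genes (-1.62). No gene was called in the lists of 22 neuroblast genes, 14 ERK feedback genes, 15 AP-1 and Egr factors, 21 Ras pathway genes, 34 Hox genes, 34 DNA replication genes, 30 genes of the unfolded protein response, 28 of sterol synthesis and 20 of smooth muscle type. Their medians ran from -0.41 to 0.39. Of 18 PDGF and FGF genes the called member was Pdgfra.

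The probe-set table holds 15342 probe sets that match no row of the gene table within a tolerance of 1e-04. Of these, 103 (0.671%) lay apart and higher in the Erbb3-high lines and 269 (1.75%) in the other direction; they are not named here.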
